A study of Homo sapiens with 4 samples.

Results

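The genes described are 10 that govern glucose entry and its use by glycolysis in cells of the human glioblastoma line LN229, measured with and without knockdown of *SOX2*. They are *TXNIP*, *ARRDC4*, *SLC2A1*, *SLC2A3*, *HK1*, *HK2*, *PFKFB3*, *PFKFB4*, *LDHA* and *PDK1*, and they were taken by gene symbol from the 20481 symbols carried by the array probes. They account for 13 of 33096 gene probes, because *SLC2A3*, *HK2* and *PFKFB3* have 2 probes each. The members were chosen by pathway and by their ratios of *SOX2* knockdown over mock signal on these same arrays, so the values of its 13 probes are a description and carry no test.

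The series holds 4 arrays, 2 per group. In the mock knockdown group, LN229 cells were transfected with a non-targeting control siRNA. In the SOX2 knockdown group they were transfected with siRNA against *SOX2*, the gene of an HMG-box transcription factor of stem cells. Cells of both groups were grown in DMEM and their total RNA was labelled with biotin and hybridised to the Human Genome Survey array of Applied Biosystems, which carries 1 colour and is read by light emission. The methods name a pair of predesigned *SOX2* siRNAs and do not say which was used for the arrays, so an effect of a single siRNA sequence cannot be told apart from loss of *SOX2*. The glucose content of the medium at harvest, cell number and glucose uptake were not analysed here. All groups come from 1 cell line, and p-values cover the spread between arrays of separate transfections only.

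The scaled signal of a probe is its normalized signal over the 75th percentile of the probes on that array. The ratio of a probe is the mean scaled signal of the 2 knockdown arrays over that of the 2 mock arrays, and a probe past 2-fold has a ratio over 2 or under 0.5. Differences on the log2 scale are knockdown minus mock, given with limma's standard error (SE, n = 2 and 2). Comparisons cover 21256 probes that passed a filter on the signal-to-noise ratio, S/N, which had to exceed 3 in both samples of mock, of knockdown, or of each. The median log2 difference of these probes was -0.00. The median gap between the arrays of a group was 0.22 for mock and 0.17 for knockdown on the log2 scale.

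The *SOX2* probe itself was read at 0.467 and 0.701 in mock and at 0.209 and 0.149 after knockdown. The groups did not overlap, with a ratio of 0.307 and a log2 difference of -1.69 (SE 0.28, limma adjusted p = 0.117). Centred on the array medians it was -1.73 with an adjusted p of 4.64e-07 in limma, a setting taken up with the pathway counts. In RNA of a whole culture, fewer expressing cells and less RNA per cell cannot be told apart. S/N of *SOX2* was between 3.06 and 3.17 after knockdown, just above the limit. The treatment text of the labels speaks of SW620, which is a colon cancer line, and the rest of LN229. Of 8 markers of a mesenchymal glioma line, 7 had S/N over 3 on all 4 arrays, and *FN1* had it on 2. Of 9 markers of colon epithelial lines, 2 had it on all arrays, *VIL1* and *TFF3*. The epithelial markers *CDH1* and *KRT20* were over 3 on no array. *EPCAM* and *CEACAM5* were over 3 on 1 array, and *CDX1*, *CDX2* and *LGALS4* on 2. Of 4 astrocyte markers, *GFAP* and *S100B* were over 3 on all arrays and *AQP4* and *SLC1A2* on none.

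Glucose enters most cells through the facilitative transporters GLUT1 and GLUT3, the products of *SLC2A1* and *SLC2A3*. Hexokinases trap it as glucose 6-phosphate, the PFKFB enzymes set the level of fructose 2,6-bisphosphate that drives phosphofructokinase, and lactate dehydrogenase and the pyruvate dehydrogenase kinases decide how much of the resulting pyruvate leaves as lactate. TXNIP and ARRDC4 are alpha-arrestins that restrain this uptake: TXNIP binds thioredoxin and promotes internalisation of GLUT1, and both genes are induced by glucose through the paired factors MondoA or ChREBP and MLX. The transporters, *PDK1*, *LDHA*, *PFKFB3* and *PFKFB4* are known targets of hypoxia-inducible factor, which is also active in many gliomas.

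The promoters of the alpha-arrestin genes are shown because *TXNIP* and *ARRDC4* were both higher after knockdown and are known to share glucose-responsive control. Each line gives the 250 bases before a transcription start in RefSeq's annotation of GRCh38.p14, 5' to 3' on the gene's strand. The *TXNIP* window is chr1:145996580-145996829 on the minus strand and the *ARRDC4* window is chr15:97960453-97960702 on the plus strand. In *TXNIP*, capitals mark a match to the carbohydrate response element, searched as 2 copies of CACGNG with 5 free bases between them, and in *ARRDC4* the E-box CACGTG.
TXNIP: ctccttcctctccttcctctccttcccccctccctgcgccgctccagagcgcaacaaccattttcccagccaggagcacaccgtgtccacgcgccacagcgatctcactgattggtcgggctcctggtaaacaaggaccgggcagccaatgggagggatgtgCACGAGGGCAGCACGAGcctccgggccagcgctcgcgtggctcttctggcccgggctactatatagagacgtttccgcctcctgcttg
ARRDC4: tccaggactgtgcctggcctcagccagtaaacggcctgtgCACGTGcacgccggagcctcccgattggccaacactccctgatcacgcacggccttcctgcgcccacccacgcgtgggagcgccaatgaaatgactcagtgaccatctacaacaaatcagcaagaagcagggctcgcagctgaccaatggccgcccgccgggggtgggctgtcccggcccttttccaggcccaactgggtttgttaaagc

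The marked stretch of *TXNIP* began 88 bases before the start and that of *ARRDC4* 210 bases before it. Searched on both strands, the spaced element was present in 16 of 35116 windows of the same length (0.0456%), and of the 20 windows of the 9 listed member genes only in this one of *TXNIP*. The other listed window of *TXNIP* did not hold it. Looser forms of the element were not searched, so its absence from other windows holds for this exact pattern only. The E-box CACGTG was present in 6.34% of all windows and in 1 window each of *ARRDC4*, *HK2*, *LDHA* and *PFKFB3*. The core ACGTG of hypoxia response elements, which every CACGTG contains, was found in 18.5% of all windows and in 7 of the 20 member windows, of 6 genes. The box CCAAT was found in 32.0% of all windows and in 7 member windows, with 2 matches in the printed *TXNIP* window and 3 in that of *ARRDC4*. The core ACAAT bound by SOX factors was found in 24.6% of all windows and in 2 member windows, 1 of *TXNIP* other than the printed one and 1 of *PDK1*. These matches describe letters in short windows and not bound sites, and *SLC2A3* was not among the windows used here.

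All 13 member probes passed the S/N filter. Of these, 4 were past 2-fold, all higher after *SOX2* knockdown, one each of *ARRDC4*, *SLC2A3*, *TXNIP* and *PDK1*. *ARRDC4* passed the filter through the knockdown arrays only, and its ratio divides by mock signals at background. Where S/N had to exceed 3 on all 4 arrays, 3 member probes were past 2-fold. Among all probes compared, 2.61% were past 2-fold in either direction, 1.57% higher and 1.04% lower. Both knockdown arrays lay above both mock arrays for 7 member probes and below them for 2, against 21.2% and 25.8% of all probes. The choice of members used these values, so nothing is read from the counts. The median log2 difference of the 13 probes was 0.31, with a range from -0.42 to 1.22 over the 12 probes read above background in both groups. *ARRDC4*, at background in mock, had a fitted difference of 2.32.

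**Figure D1:**
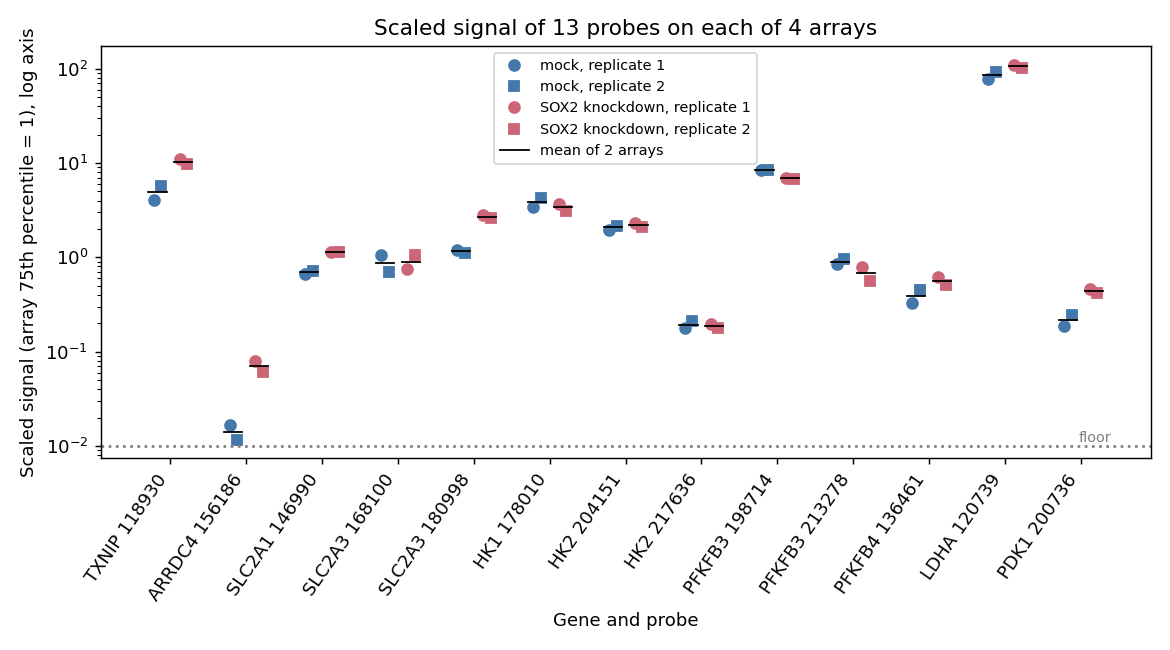
Scaled signal (log axis, 75th percentile of the array = 1) of the 13 member probes on the 2 mock arrays (blue) and 2 *SOX2* knockdown arrays (red), with the mean of each pair as a line and the floor of 0.01 dotted. The knockdown points lie above the mock points for *TXNIP*, *ARRDC4*, *SLC2A1*, *SLC2A3* probe 180998, *PFKFB4*, *LDHA* and *PDK1*, and below them for both *PFKFB3* probes. Heights of different probes are not comparable.

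*TXNIP*, the inhibitor of thioredoxin and of glucose uptake, was read at 4.09 and 5.67 in the mock samples and at 10.96 and 9.74 in the knockdown samples. Every knockdown array was above every mock array, by 1.72-fold at the closest. The ratio was 2.12 and the log2 difference 1.10 (SE 0.21), rank 281 of 21256 from the highest. S/N was between 83.4 and 130.6, so the probe was read far above background on all 4 arrays. On SOX2 knockdown replicate 2 it carried a flag of 64, the meaning of which is not given in the sources used here. The ratio lies just past the cutoff, and without mock replicate 1 the ratio was 1.83 and the log2 difference 0.87. Without SOX2 knockdown replicate 1 the ratio was just under 2.

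*ARRDC4*, which like *TXNIP* promotes removal of glucose transporters from the cell surface, was dim. Its scaled signal was 0.0165 and 0.0116 in mock and 0.0787 and 0.0604 after knockdown. S/N was 1.11 and 1 in mock and 6.13 and 3.51 after knockdown, so the transcript was not well above background in mock knockdown cells and was read in both knockdown samples. As the mock level is only a limit, the knockdown signal is set against the signal that would have S/N of 3 on each mock array. With the main scaling and the knockdown signals taken as read, it was at least 1.75-fold higher. The fitted log2 difference of 2.32 rests on mock signals at background and is no measured size. It became 0.46 with the floor of the scaled signal raised to 0.05 and 0.57 with normexp background correction. The ratios were then 1.39 and 1.47, under the bound of 1.75, so that bound holds for the main scaling only.

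Of the other alpha-arrestins, *ARRDC3* was read at 0.888 and 1.10 in mock and at 2.06 and 1.87 after knockdown. Its groups did not overlap, with a ratio of 1.98 and a log2 difference of 0.99 (SE 0.17, limma adjusted p = 0.117). *ARRDC2* had a log2 difference of 0.03 (SE 0.15, limma adjusted p = 0.972) and *ARRDC1* one of -0.29 (SE 0.13, limma adjusted p = 0.379). The list held 3 probes on the array besides the members, with a median of 0.03.

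The factors that sense glucose and oxygen for these genes, *MLXIP*, *MLXIPL* and *HIF1A*, were named for that role after their values were seen and not by the rule on size. *MLXIP*, which encodes MondoA, was read at 1.13 and 1.38 in mock and 1.27 and 1.21 after knockdown, with a log2 difference of -0.01 (SE 0.16). *MLXIPL*, which encodes ChREBP, had a difference of -0.00 (SE 0.22), and the 2 probes of their partner *MLX* had -0.08 (SE 0.13) and 0.06 (SE 0.15). *HIF1A*, the oxygen-regulated subunit of hypoxia-inducible factor, was at -0.01 (SE 0.14), *EPAS1* at -0.03 (SE 0.16) and *ARNT* at -0.17 (SE 0.14). Arrays measure transcripts, and these factors are known to be controlled largely at the protein level. *MYC*, a transcription factor that drives glycolytic genes, was read at 0.886 and 1.06 in mock and at 1.62 and 1.58 after knockdown, a log2 difference of 0.72 (SE 0.15, limma adjusted p = 0.144).

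*TXN*, the thioredoxin that TXNIP binds and named for that after its values were seen, had a log2 difference of 0.06 (SE 0.13, limma adjusted p = 0.894), and the reductases *TXNRD1* and *TXNRD2* had 0.15 (SE 0.14) and 0.53 (SE 0.14, limma adjusted p = 0.197). The 2 probes of *TXNRD3* disagreed, at -0.77 (SE 0.13) and 0.39 (SE 0.12), and those of *TXN2* were at -0.05 (SE 0.18) and -0.01 (SE 0.16). The median of the 7 thioredoxin system probes was 0.06, and none passed an adjusted p of 0.05 in limma.

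Among the transporters, *SLC2A1*, which encodes the widely expressed GLUT1, was read at 0.670 and 0.722 in mock and at 1.15 and 1.13 after knockdown. The groups were apart by more than either pair of replicates, with a ratio of 1.64 and a log2 difference of 0.71 (SE 0.13). It lay below the 2-fold cutoff, and 5.32% of all probes were over 1.5-fold higher.

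*SLC2A3*, which encodes the high-affinity neuronal transporter GLUT3, gave different answers on its 2 probes. Probe 180998 was read at 1.20 and 1.11 in mock and at 2.78 and 2.61 after knockdown, with a ratio of 2.33 and a log2 difference of 1.22 (SE 0.13). Probe 168100 was read at 1.05 and 0.703 in mock and at 0.744 and 1.05 after knockdown, with a ratio of 1.03 and a log2 difference of 0.04 (SE 0.28). The first probe had non-overlapping groups and replicate gaps of 0.10 and 0.09 on the log2 scale, while the groups of the second overlapped and its replicates differed by 0.57 and 0.50.

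Both *SLC2A3* probes carry the same RefSeq accession and the same gene ID, which they share with the probe of *SLC2A14*, the gene of a closely related transporter. The *SLC2A14* probe was read at 0.972 and 0.794 in mock and at 0.806 and 0.851 after knockdown, a ratio of 0.938 and a log2 difference of -0.09 (SE 0.16, limma adjusted p = 0.882). The annotation does not say whether either *SLC2A3* probe also binds *SLC2A14* RNA or which transcript end each one reads. Averaging the 3 probes by gene ID, as the study's methods describe for genes with several probes, gave a ratio of 1.52, under 2-fold. The study itself lists *SLC2A3* as more than 2-fold higher after knockdown, unlike this average. The study does not say which probes its value rests on. That value lies close to the ratio of probe 180998 alone in the value table of the authors, which was 2.30. Probe 168100 had a ratio of 1.01 there.

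**Figure D2:**
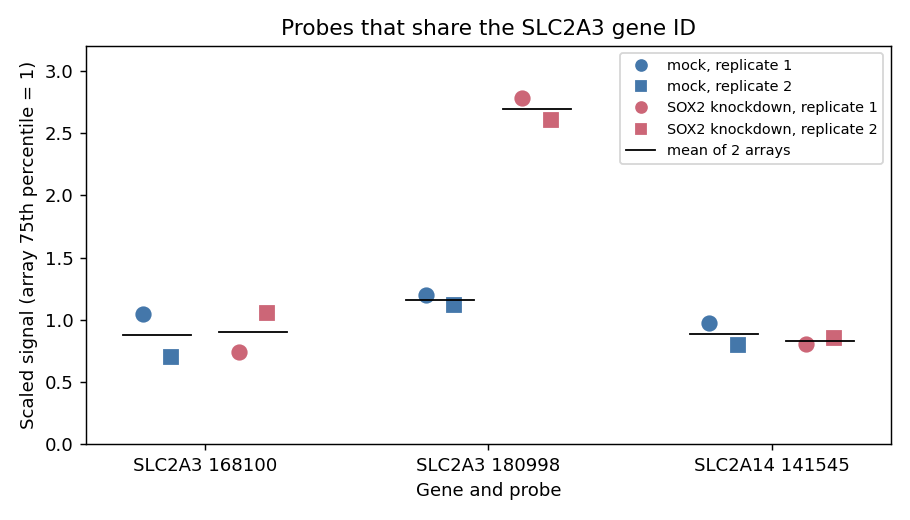
Scaled signal of the 3 probes that share a gene ID, on the 2 mock (blue) and 2 *SOX2* knockdown arrays (red), with the mean of each pair as a line. Only *SLC2A3* probe 180998 separates the groups, at 1.20 and 1.11 against 2.78 and 2.61, while the points of *SLC2A3* probe 168100 and of *SLC2A14* overlap.

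Of the 12 other transporter genes on the array, 7 were read above the filter. *SLC2A13*, the proton and myo-inositol transporter, had the largest difference and was lower, at 0.124 and 0.124 in mock and 0.0638 and 0.0688 after knockdown, a log2 difference of -0.90 (SE 0.13, limma adjusted p = 0.102). *SLC2A10* was at -0.43 (SE 0.16) and *SLC2A8* at -0.17 (SE 0.21). *SLC2A6* and *SLC2A9* were at 0.15 (SE 0.14) and 0.12 (SE 0.33). The median of the 7 probes was -0.09, so the higher signals of *SLC2A1* and of 1 *SLC2A3* probe stood beside a list with 5 of 7 probes lower.

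The hexokinases, which commit glucose to the cell, showed overlapping groups. *HK1* was read at 3.46 and 4.28 in mock and at 3.68 and 3.13 after knockdown, a log2 difference of -0.18 (SE 0.18). *HK2*, the inducible form, was read by probe 204151 at 1.97 and 2.18 in mock and 2.32 and 2.11 after knockdown, a difference of 0.10 (SE 0.14). Its probe 217636 was read at 0.177 and 0.211 in mock and 0.197 and 0.176 after knockdown, a difference of -0.05 (SE 0.16). For each of these 3 probes the log2 difference was about the size of its SE or below it.

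The regulators of fructose 2,6-bisphosphate differed in direction. *PFKFB3*, whose product strongly favours synthesis of this activator, was lower on both probes. Probe 198714 was read at 8.37 and 8.46 in mock and at 6.97 and 6.78 after knockdown, a ratio of 0.817 and a log2 difference of -0.29 (SE 0.12). Probe 213278, for which no RefSeq accession was found, was read at 0.840 and 0.952 in mock and at 0.790 and 0.567 after knockdown. Its ratio was 0.757 and its log2 difference -0.42 (SE 0.21). Neither pair of groups overlapped, and both differences were under 1.5-fold.

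*PFKFB4*, the related enzyme first described in testis, was read at 0.330 and 0.455 in mock and at 0.613 and 0.510 after knockdown. Its groups were separated by 1.12-fold at the closest, with a ratio of 1.43 and a log2 difference of 0.53 (SE 0.22). Of the related genes, *PFKFB1* was at 0.29 (SE 0.17), *PFKFB2* at -0.03 (SE 0.31), *TIGAR*, which opposes the PFKFB kinases, at 0.27 (SE 0.13) and *FBP1*, a gluconeogenic phosphatase, at -0.64 (SE 0.13, limma adjusted p = 0.138). *FBP1* had S/N over 3 on both mock arrays and under 3 on both knockdown arrays, so it is given as at least 1.18-fold lower, against the signal that would have S/N of 3.

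*LDHA*, the lactate dehydrogenase subunit that favours formation of lactate, was read at 78.6 and 93.3 in mock and at 110.5 and 101.7 after knockdown. The groups did not overlap, the closest pair differing by 1.09-fold, and the ratio was 1.23 with a log2 difference of 0.31 (SE 0.15). The probe carried a flag on mock replicate 1 and on both knockdown arrays that 99 to 129 probes of an array carried, all with raw readings above those of at least 99.8% of other probes. The meaning of this flag is not given in the sources used here, and between 46 and 115 probes of an array had a higher raw reading than *LDHA*. *LDHB*, the subunit that favours the reverse reaction, was read at 11.6 and 12.8 in mock and 10.4 and 9.24 after knockdown, a log2 difference of -0.32 (SE 0.14, limma adjusted p = 0.370).

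*PDK1*, a kinase that inactivates pyruvate dehydrogenase and so keeps pyruvate from the mitochondrial cycle, was read at 0.186 and 0.244 in mock and at 0.463 and 0.421 after knockdown. The groups were 1.72-fold apart at the closest, with a ratio of 2.05 and a log2 difference of 1.05 (SE 0.19). Of the 4 member probes past 2-fold it was nearest to the cutoff. Leaving out mock replicate 1 brought the log2 difference to 0.85 and leaving out SOX2 knockdown replicate 1 brought it to 0.98, both under 2-fold. Scaling to the array medians gave a ratio of 1.99 and normexp one of 1.78.

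**Figure D3:**
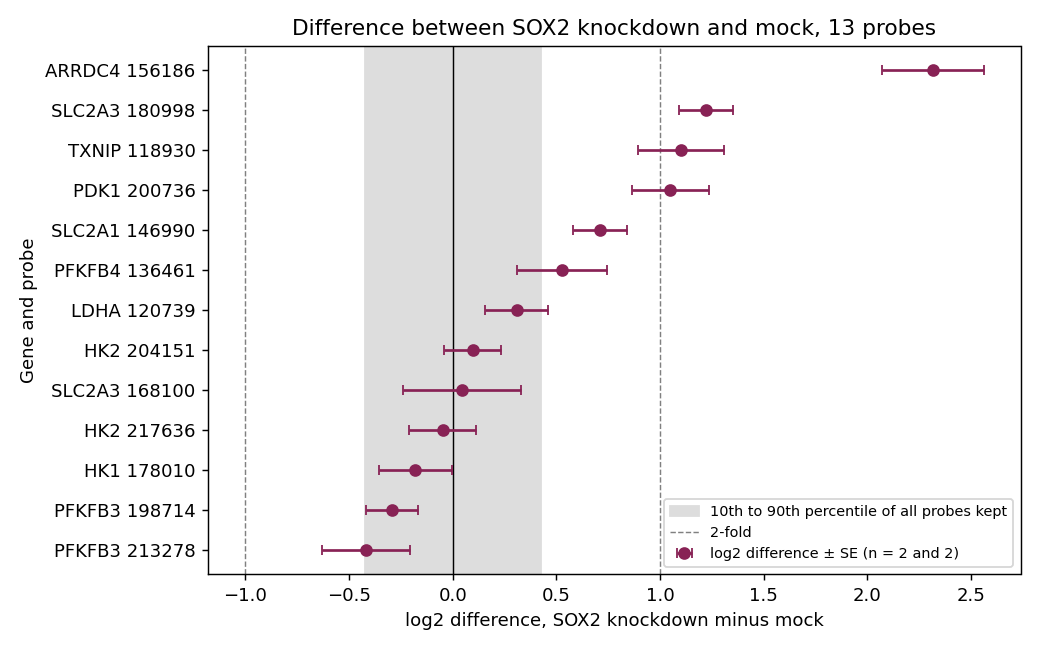
Log2 difference (*SOX2* knockdown minus mock, x axis) of the 13 member probes with limma's SE as bars, the 2-fold lines dashed and the 10th to 90th percentile of all 21256 probes (-0.42 to 0.43) in grey. Probes of *ARRDC4*, *SLC2A3* (180998), *TXNIP*, *PDK1*, *SLC2A1* and *PFKFB4* lie right of the grey band, that of *ARRDC4* with mock signals at background.

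The other enzymes and transporters of pyruvate and lactate went both ways. *PDP1*, a phosphatase that reactivates pyruvate dehydrogenase and so opposes the PDK kinases, was read at 2.06 and 1.87 in mock and at 6.33 and 5.69 after knockdown. Its ratio of 3.06 and log2 difference of 1.61 (SE 0.14) were the largest of the list, with an adjusted p of 0.0675 in limma. *PDP2*, of the same function, had a log2 difference of 0.57 (SE 0.13, limma adjusted p = 0.157).

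None of the other kinases was higher by more than its SE. *PDK2* was read at 0.271 and 0.247 in mock and at 0.138 and 0.156 after knockdown, a log2 difference of -0.82 (SE 0.14, limma adjusted p = 0.121). *PDK3* was at 0.09 (SE 0.13). *PDK4* was at -0.91 (SE 0.43), but its S/N was 2.96 and 0.72 on the knockdown arrays, so this is no measured size. No bound is given for *PDK4*, since its S/N and its error on SOX2 knockdown replicate 2 set different limits. *SLC16A3*, the lactate exporter MCT4, was read at 0.673 and 0.840 in mock and at 1.5 and 1.38 after knockdown, a log2 difference of 0.94 (SE 0.17, limma adjusted p = 0.124), while *BSG*, the chaperone of the monocarboxylate transporters, was at -0.50 (SE 0.21). The median of the 15 probes was -0.04.

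In the glycolytic pathway itself, 21 of 25 probes had a log2 difference above 0, with a median of 0.14 against -0.00 for all probes. Past 2-fold and higher were 2 of the 25, against 1.57% of all probes. *ENO3*, the muscle enolase, had a ratio of 2.78 and a log2 difference of 1.71 (SE 0.59), and its mock arrays were far apart at 0.0281 and 0.0916, the first with S/N of 0.31. The other was *GAPDH* probe 204306, with S/N of 3.63 and 2.66 in mock, read at 0.0363 and 0.0233 in mock and at 0.0519 and 0.0755 after knockdown, a ratio of 2.14. *GAPDH* probe 235868 had a ratio of 0.991 with overlapping groups, and the remaining probe 175324 had one of 1.85, its mock arrays at 38.8 and 85.6. The 3 *GAPDH* probes thus disagreed. Several enzymes of this list have more than 1 probe, and it was chosen with earlier results of these data known. Nothing is therefore read from its counts.

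Among the other glycolytic enzymes, *GPI* was at 0.36 (SE 0.14), *PGAM2* at 0.60 (SE 0.53) and *PGAM1* at 0.35 (SE 0.12), 0.20 (SE 0.13) and 0.12 (SE 0.15) on its 3 probes. The phosphofructokinases *PFKL* and *PFKM* were lower, at -0.54 (SE 0.13, limma adjusted p = 0.175) and -0.35 (SE 0.15). In the pentose phosphate branch, the median of 10 probes was 0.05. *TKTL1* was at 1.01 (SE 0.49) with mock arrays at 0.0594 and 0.156. *TALDO1* was at 0.24, 0.05 and -0.15 on its 3 probes, and the probe at 0.24 also carries the symbol *HSUP1*. *RPE* was at 0.17, *PGD* was at -0.13 and *RPIA* at -0.08.

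Targets of hypoxia-inducible factor that lie outside glycolysis had a median log2 difference of 0.48 over 15 probes of 12 genes, against -0.00 for all probes. Of the 15 probes 13 were above 0, and 9 had both knockdown arrays above both mock arrays, as did 21.2% of all probes. None of the 15 passed an adjusted p of 0.05 in limma. An unadjusted limma p under 0.05 was found for 9, all higher, against 7.90% of all probes with a higher signal. The list was chosen with earlier results of these data known and some of its genes have several probes, so nothing is read from these counts. *VEGFA*, the angiogenic growth factor, was read at 0.183 and 0.260 in mock and at 0.573 and 0.465 after knockdown, a log2 difference of 1.24 (SE 0.23, limma adjusted p = 0.129). *DDIT4*, an inhibitor of mTORC1 signalling, was read at 2.01 and 2.83 in mock and 5.80 and 5.46 after knockdown, also 1.24 (SE 0.21, limma adjusted p = 0.117). Of 3 probes of *BNIP3*, a mitophagy receptor, 2 passed the filter and were higher, at 1.07 (SE 0.13, limma adjusted p = 0.0945) and 1.0 (SE 0.15, limma adjusted p = 0.107).

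Other genes of that list differed less. *NDRG1* was at 0.58 (SE 0.16), 0.49 (SE 0.17) and 0.31 (SE 0.25) on its 3 probes, *EGLN1* at 0.56 (SE 0.17) and *KDM3A* at 0.48 (SE 0.17). The *NDRG1* probe at 0.58 was dim, at 0.0413 and 0.0407 in mock with S/N of 2.05 on mock replicate 1. It passed the filter through the knockdown arrays only. *CA9*, a carbonic anhydrase often read as a hypoxia marker and named for that after its values were seen, was at 0.03 (SE 0.16). *EGLN3* was at -0.15 (SE 0.34) and *PLOD2* at -0.04 (SE 0.16).

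**Figure D4:**
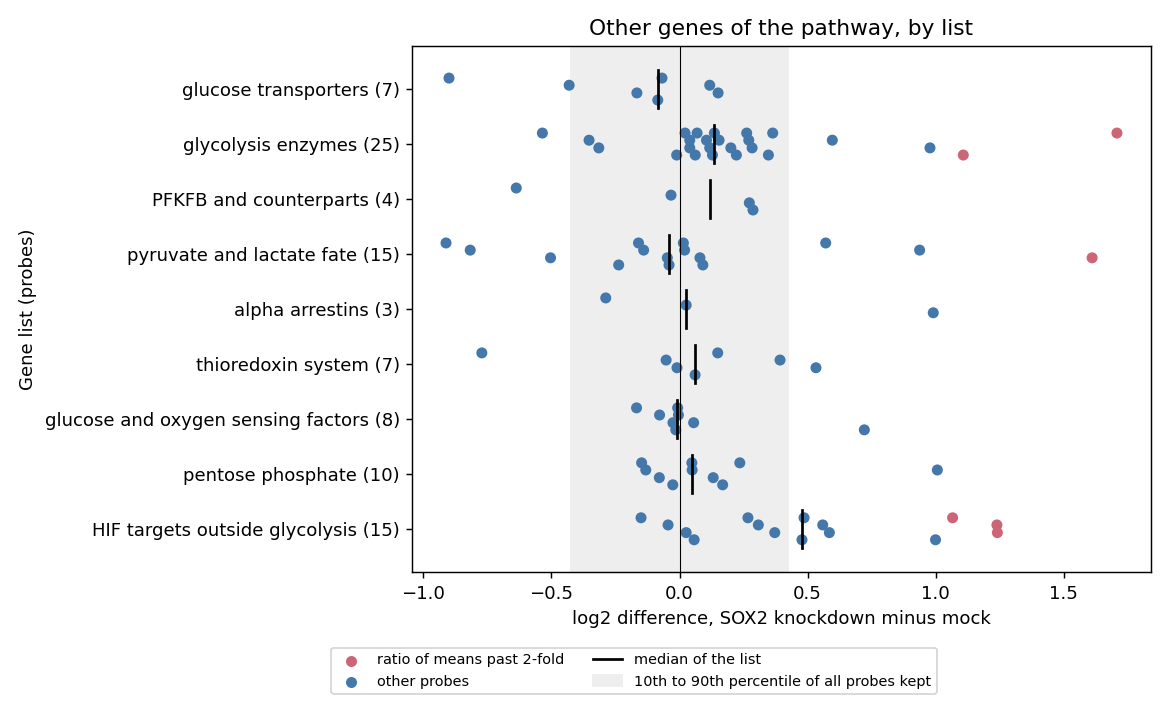
Log2 difference (*SOX2* knockdown minus mock, x axis) of each probe of the other pathway genes, by list, with the number of probes in brackets, the list's median as a line and probes past 2-fold in red. The 10th to 90th percentile of all probes (-0.42 to 0.43) is grey. The median of the hypoxia-inducible factor targets is 0.48 and the other medians lie between -0.09 and 0.14. The grey band describes single probes and is no yardstick for a median.

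Together the lists hold 93 genes besides the members, of which 92 were on the array and 79 were read by 94 probes above the filter. Of these probes 59 were above 0 and 35 below, with a median of 0.06. Past 2-fold were 6 probes, all higher, against 1.57% of all probes past 2-fold and higher and 1.04% lower. Of the 6, *ENO3* and *GAPDH* probe 204306 passed the filter through the knockdown arrays only. The lists were chosen with earlier results of these data known, so nothing is read from the counts given here. By limma's test with Benjamini-Hochberg adjustment over all 21256 probes, none of the 94 passed 0.05, 2 passed 0.1 and 24 had an unadjusted p under 0.05, 19 of them higher and 5 lower. Among all probes 0 passed 0.05, 241 (1.13%) passed 0.1, and 7.90% and 9.16% had an unadjusted p under 0.05 with a higher and a lower signal. When the arrays were instead centred on their medians, 826 of all probes and 13 of the 94 passed 0.05. That scaling left median log2 gaps of 0.20 and -0.16 between the arrays of a group, against 0.03 and -0.01, and limma's estimate of the prior degrees of freedom was then infinite, against 2.44.

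Within each group the member probes were alike in which array was higher. Mock replicate 2 was above mock replicate 1 for 10 of 13 probes, against 53.4% of all probes, and SOX2 knockdown replicate 1 was above SOX2 knockdown replicate 2 for 12 of 13, against 51.8%. Replicates carry no order, and the part this played in the differences between groups was not tested.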

How the data were processed

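Total RNA of LN229 cells was read on 4 arrays of 1 colour, 2 per group, from separate transfections according to the methods of the study. The deposited scanner files give linear intensity columns, with flags, the meaning of which is not given in the sources used here. The S/N column is a deposited score, the normalized signal over its error. The authors' value table holds a linear ratio, the signal divided by the probe's median, or by 10 for probes with a lower median. The medians of its columns were 0.102.

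Control features and 210 probes with a flag of 5000 or more were left out. The normalized signal was divided by the 75th percentile of each array, floored at 0.01 and taken to log2, and probes with S/N over 3 on both arrays of a group were kept. The number of arrays limits the precision. Limma 3.58.1 (R 4.3.3; lmFit and eBayes, two-sided, no block) was fitted over all probes kept and tested on simulated data. Probes dim in a group, except that of *PDK4*, were bounded by the signal that would have S/N of 3 there. The lowest signal with S/N over 3 was at the floor and set no limit. The members and lists were chosen with earlier results of these data known. Named were all member probes, *SOX2*, *SLC2A14* and, of each list, genes past 2-fold and up to 3 others with the largest difference in each direction, with exceptions said to be so. Of 103 list entries 102 were found, 7 through a RefSeq synonym, and 12 of 13 member probes had an accession of the same RefSeq symbol. Promoter windows of GRCh38.p14 came from RefSeq, with Python 3.11.15 for the search and matplotlib 3.10.9 for plots. The same-numbered arrays of both groups deviated with a correlation of -0.48, so the numbers were not used as pairs.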

Additional observations from a re-analysis of the deposited data

How the results depend on the processing

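The 9 member probes with a main log2 difference above 0 kept that direction under every alternative run, except *SLC2A3* probe 168100 (-0.24 to 0.61), and the 4 below 0 kept theirs except *HK2* probe 217636 (-0.29 to 0.09). *TXNIP* ranged from 0.87 to 1.34, *PDK1* from 0.83 to 1.24, *SLC2A3* probe 180998 from 0.61 (averaged by gene ID) to 1.27, and *ARRDC4*, which has no value where all 4 arrays must pass the S/N filter, from 0.46 to 2.57. On the raw reading, chosen after seeing the data, *LDHA* was at 0.34.

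Main counts were 554 probes past 2-fold, 4 of them of members, and 0 past an adjusted p of 0.05. Past 2-fold were 220 probes and 2 of members with normexp at offset 50, 363 with a floor of 0.05, 1373 without a filter on S/N and 302 where all 4 arrays had to pass it. At 1.5-fold 2234 probes passed, and at 3-fold 119, with 1 of a member. Leaving out 1 array gave 782 to 1192 probes and 2 to 4 of members, 2 without mock replicate 1 and 2 without SOX2 knockdown replicate 1, with 0 past an adjusted p of 0.05 each time.

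An adjusted p of 0.05 was passed by 826 probes (13 of the pathway lists, *SOX2* at -1.73) with median scaling. It was passed by 776 (13, -1.72) with the deposited signal as it stands and by 758 (13, -1.72) with the authors' value table. These settings all leave the arrays on a common median. Quantile normalization gives the arrays a common distribution, and so a common median too, but 0 probes and 0 of the pathway lists passed there. *SOX2* was then at -1.70 (limma adjusted p = 0.142). An adjusted p of 0.05 was passed by 287 (5) with limma's variance trend and by 5 with S/N over 3 on all 4 arrays, where fewer probes were tested. With the replicate number as a block 0 probes and 0 of the pathway lists passed, and a crossed pairing, chosen after seeing the data, also gave 0 and 0. The causes of these shifts were not tested. Signals at background limit *ARRDC4* and *FBP1* to bounds and leave *PDK4* without one.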
